A study of Mus musculus with 16 samples.

Results

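Ribosomal protein genes encode the proteins of the cytoplasmic ribosome, and 45 of them were measured by a named probe set in mouse embryonic stem (ES) cells, out of 12393 genes with a probe set that carries a single gene symbol. The genes were chosen by symbol (Rpl and Rps with a number, the stalk genes Rplp0 to Rplp2, and Rpsa). They were represented by 96 probe sets, and 22 genes had more than 1, in which case the one of highest average intensity across all 16 arrays was used. The set held 21 genes of the small subunit and 24 of the large subunit.

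The 16 arrays (Affymetrix MOE430A, a short-oligonucleotide array read from the 3' part of each transcript) came from ES cells of mixed 129/C56Bl/6 strain, either WT (+/+) or KO (-/-, both copies of a gene inactivated). Each genotype was measured in the growing state (3 arrays), 2 h after 8 Gy of gamma irradiation (IR, 3 arrays) and 24 h after irradiation (2 arrays, for which the labels give no dose). All cells were grown with LIF on mitomycin-treated fibroblast feeders, and the feeders were removed by letting them attach to gelatin for 1 h before RNA was taken. The ES lines came from single blastocysts of a heterozygous cross, and the labels do not say how many lines of a genotype were used, so that genotype and line cannot be told apart. No unirradiated culture was sampled at 2 h or 24 h, so the effects of irradiation and of the time in culture cannot be told apart. Nothing in the labels says that arrays of one group came from separate cultures, so the p-values speak only to the spread among these arrays, which may be technical.

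A ribosomal protein is made in step with its partners, because each subunit holds a single copy of nearly all of them. In mammals their mRNAs begin with a pyrimidine tract (the terminal oligopyrimidine, or TOP, motif), through which growth signals acting by the mTOR kinase set how strongly they are translated. That control acts on ribosome loading and is not seen in a measurement of mRNA level. Several ribosomal proteins also bind and inhibit Mdm2, the ubiquitin ligase of p53, when ribosome assembly is disturbed.

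The start sites of a few of these genes show the TOP motif. Windows are given here for genes the results turn on (Rps6, Rpl14, Rps27, Rps27l, Rpl39l). Those of Rpl35, Rplp2, Rpl38 and Rps10 are given for comparison. The comparison genes are examples that all carry a pyrimidine run at the start. They are not a sample of the members and do not show how common such a run is. Each window runs from 15 bases before the RefSeq start to 15 bases from it onward, 5' to 3' on the gene's strand, and capitals mark runs of 5 or more C or T.
Rps6: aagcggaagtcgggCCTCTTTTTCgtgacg
Rpl14: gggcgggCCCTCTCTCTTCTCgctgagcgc
Rps27: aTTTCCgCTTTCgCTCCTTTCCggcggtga
Rps27l: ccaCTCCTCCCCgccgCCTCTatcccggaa
Rpl39l: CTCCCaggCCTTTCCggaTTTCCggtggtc
Rpl35: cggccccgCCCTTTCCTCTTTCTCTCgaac
Rplp2: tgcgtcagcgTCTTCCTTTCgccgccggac
Rpl38: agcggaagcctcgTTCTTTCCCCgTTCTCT
Rps10: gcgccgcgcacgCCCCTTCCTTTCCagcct
In build GRCm38.p6 these windows lie at chr4:86857353-86857382 (minus strand) for Rps6, chr9:120571502-120571531 (plus) for Rpl14, chr3:90213634-90213663 (minus) for Rps27, chr9:66946071-66946100 (plus) for Rps27l and chr16:10170213-10170242 (plus) for Rpl39l. Those of the comparison genes lie at chr2:39005117-39005146 (minus) for Rpl35, chr7:141447636-141447665 (plus) for Rplp2, chr11:114668565-114668594 (plus) for Rpl38 and chr17:27635230-27635259 (minus) for Rps10. The pyrimidine run crosses or begins at the start in Rps6, Rpl14, Rpl35, Rplp2, Rpl38 and Rps10, and a shorter one does so in Rps27, whereas in Rps27l and Rpl39l no run crosses the start.

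A RefSeq promoter (250 bases before the start and 50 from it onward, first listed start) was matched for 39 of the 45 genes. A tract, here a C followed by at least 6 C or T on the gene's strand, was sought within 30 bases of the start. It was found in 23 of the 39 (59.0%), against 26.5% of all 27025 genes with a promoter. Every gene with a window above had such a tract, including Rps27l and Rpl39l. Members such as Rplp0, Rps2, Rps3 and Rps19 had none, so the windows do not stand for all members. The letters CCGGAAGT, a core bound by ETS-family factors such as GABP, were found on either strand in 10 of the 39 promoters (25.6%), against 4.0% of all. The letters AAGATGGC, a core of the YY1 site, were found in 2 of the 39 (5.13%), against 2.88%. These are matches of letters in a window and do not show binding.

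Levels are the deposited intensities, scaled by the authors so that the trimmed mean of every array (2% off each end) was 100.04 to within 0.01. Changes are differences of log2(intensity + 16), which understates the change of dim probe sets. Tests are limma's moderated test with Benjamini-Hochberg adjustment over 17736 probe sets, called at an adjusted p below 0.05, and the background for a count is the share of 10252 genes called in the same comparison. All 45 genes passed the filter on dim probe sets. Of them, 35 had a mean intensity over 1000, and 10 (Rpl12, Rpl14, Rpl27a, Rpl37, Rpl39, Rpl39l, Rpl3l, Rps25, Rps27 and Rps6) had one under 500. Intensities of different probe sets are not on a common scale and were not compared between genes. The words bright and dim therefore describe a probe set and not the amount of the mRNA. Of the 45 probe sets, 12 carry Affymetrix's x mark and 1 the s mark for probes shared with other transcripts. Ribosomal protein genes have many near-identical processed pseudogenes, so the signal of a gene and of its copies cannot be separated here for those probe sets.

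None of the ribosomal protein genes was called between KO and WT cells in any of the 3 states. In growing cells 0 of 45 were called, against 0.263% of all genes. An unadjusted p below 0.05 was reached by 1 of 45, and by 10.8% of all genes. The median change of the 45 (KO minus WT) was -0.09 on the log2 scale, beside -0.04 for all genes tested. The 95% interval of the change lay within 0.5 on either side of 0 for 35 of the 45 (77.8%), and for 42.1% of all genes tested. At 2 h after irradiation 0 of 45 were called (background 0.439%), with a median of 0.04 beside 0.05 for all genes. Here 2 of 45 had an unadjusted p below 0.05, beside 15.9% of all genes. At 24 h 0 of 45 were called (background 0.0585%), with a median of 0.01 beside 0.01, and 2 of 45 passed unadjusted, beside 9.6% of all genes. The interval lay within 0.5 of 0 for 37 of the 45 at 2 h (82.2%, and 39% of all genes). At 24 h, with 2 arrays a group, it did so for 27 of the 45 (60%, and 20.6% of all genes). The absence of calls at 24 h therefore does not show similar levels for every member. Markers of primitive endoderm, measured for 12 of 12 genes, had median differences between KO and WT of 0.31, 0.40 and 0.45 in the 3 states. Of the 12, 9, 10 and 11 were above 0 and 0 were called, and over all 10252 genes 4364, 5991 and 5218 were above 0. Of 12 ES cell markers 1 was called lower in KO when growing, where their differences ran from -0.97 to 0.49 with a median of 0.01. At 2 h and 24 h 0 of these 12 were called. The part of both marker sets in the values of the ribosomal protein genes was not tested.

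The values of individual members in growing cells show the size of these differences. Rplp0, which anchors the stalk that recruits elongation factors, was at 3679, 4086 and 5174 in growing WT cells and at 3471, 3600 and 3947 in growing KO cells. The groups overlapped, and the difference was -0.22 ± 0.15 (SE; limma adjusted p = 0.62). Rpl11, which with Rpl5 and the 5S RNA binds Mdm2, differed by -0.08 ± 0.13 between growing KO and WT cells (limma adjusted p = 0.865). Rps19, mutated in Diamond-Blackfan anaemia, differed by -0.06 ± 0.19 (limma adjusted p = 0.94), and the X-linked Rps4x by -0.08 ± 0.16 (limma adjusted p = 0.884). None of the 4 passed the test in any of the 7 comparisons between groups.

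Rpl39l departed from the other members between the genotypes. It is a paralog of Rpl39, the small protein at the wall of the exit tunnel, and is best known from the testis. In growing cells its intensity was 172, 157 and 202 in WT and 81.5, 34.8 and 109.8 in KO. At 2 h it was 132, 150.0 and 191 in WT and 71.8, 49.2 and 124.7 in KO, and at 24 h it was 166 and 146 in WT and 72.2 and 22.02 in KO. Every one of the 8 KO arrays lay below every one of the 8 WT arrays. The log2 difference between KO and WT was -1.17 ± 0.32 (SE) when growing, -0.89 ± 0.32 2 h after irradiation and -1.57 ± 0.39 a day after it, and within single states none passed (limma adjusted p = 0.152, 0.207 and 0.217). With run as a block it passed when growing and at 24 h (limma adjusted p = 0.0214 and 0.00264). With replicate number as a block it also passed in these states (limma adjusted p = 0.0134 and 0.0145).

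Within hybridisation runs that held both genotypes, the log2 difference of Rpl39l between KO and WT was -0.95 and -0.79 in growing cells, -0.92 and -0.56 at 2 h and -2.09 at 24 h. Averaged over the 3 states in the same fit, a contrast added after these values were seen, the difference was -1.21 ± 0.20 (limma adjusted p = 0.00159), with 4.45% of all genes called. Over 29 other settings of the analysis this mean difference ranged from -1.44 to -0.82, and it was called in all 29. These settings refit the same arrays, so they are not independent support. Rpl39l was the only member called in that contrast, and no member of intensity over 1000 was. The KO arrays themselves spread widely (SD 37.9 around 75.4 in growing cells, n = 3), with the highest KO values in the replicate 3 arrays, whose recorded hybridisation was on the second day.

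Its parent gene Rpl39, on the X chromosome, showed another pattern. In WT cells it was at 109, 84.0 and 98.7 when growing, 51.8, 59.2 and 51.9 at 2 h, and later, at 24 h, 116 and 83.4. Its WT 2 h arrays did not overlap with the growing ones, and the difference of -0.68 ± 0.25 did not pass (limma adjusted p = 0.498). In KO cells at 2 h it was at 136.8, 41.6 and 117, and the difference from WT was 0.59 ± 0.25 (limma adjusted p = 0.279). The low KO array is replicate 2, whose 18S rRNA control read 2942, against 41.3 to 163 on 14 of the arrays. The other array of high 18S signal, growing WT replicate 1 (976), had the highest Rpl39 of its group (109). Without KO replicate 2 the difference was 1.02 (limma adjusted p = 0.00988). That value rests on leaving out the KO array that went against the difference, and the part of the 18S signal was not tested.

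**Figure D1:**
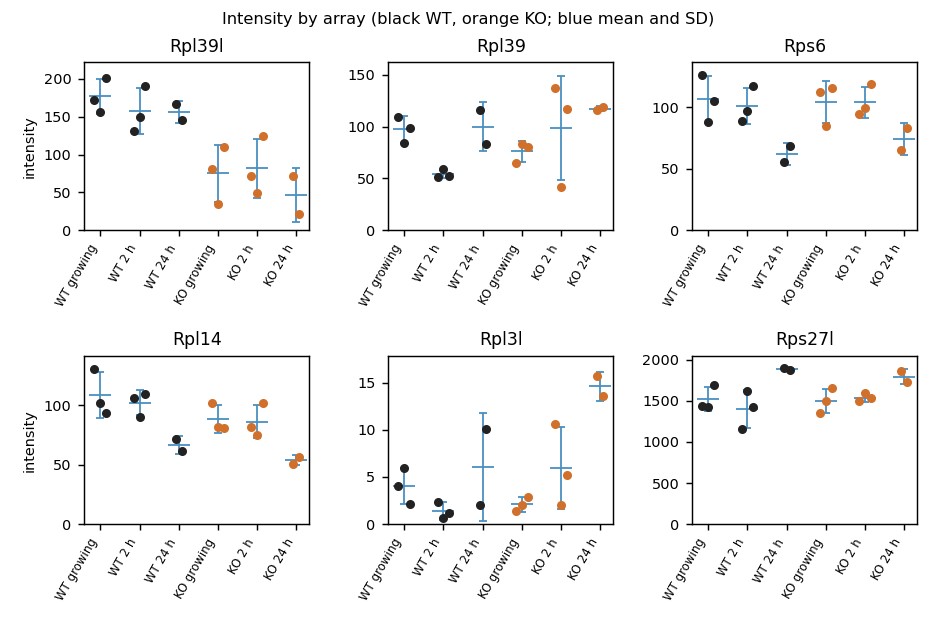
Intensity (linear, arbitrary units, vertical axis from 0) of 6 ribosomal protein genes on each array, by group (black points WT, orange points KO, blue bars mean and SD). Rpl39l lies lower on all 8 KO arrays, from 22.02 to 124.7, than on the 8 WT arrays, from 132 to 202, and within each genotype the means of Rps6 and Rpl14 are lowest at 24 h.

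None of the other members with large differences between the genotypes passed the test. Among those lower in KO, Rps25 differed by -0.23 ± 0.14 when growing, -0.19 ± 0.14 at 2 h and -0.35 ± 0.17 at 24 h (limma adjusted p = 0.586, 0.533 and 0.526). Rpl7 differed by -0.28 ± 0.18 at 24 h (limma adjusted p = 0.648), and Rps27, a dim probe set, by -0.46 ± 0.28 when growing (limma adjusted p = 0.577). Among those higher in KO, Rpl27a differed by 0.25 ± 0.29 at 2 h. Rpl3l differed by 0.32 ± 0.19 at 2 h and 0.50 ± 0.23 at 24 h (limma adjusted p = 0.448 and 0.514). Rpl3l passed the filter only through the KO 24 h group, so its difference at 24 h is given as a description. All its WT values, and its KO values at 2 h (10.6, 1.99 and 5.19), were below the filter limit. In growing cells the 3 highest differences, those of Rps9, Rpl37 and Rps29, were 0.05 ± 0.13, 0.02 ± 0.12 and -0.01 ± 0.15. In growing cells 43 of the 45 differences lay below 0, where the median of all genes also did.

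At 2 h after irradiation none of the ribosomal protein genes was called in either genotype, while most p53 targets were. In WT cells 0 of 45 were called (background 0.156%) and the median change was 0.01, beside -0.04 for all genes. In KO cells 0 of 45 were called (background 0.127%) and the median was 0.16, beside 0.04. Unadjusted p-values below 0.05 were reached by 1 of 45 in WT and 1 of 45 in KO, beside 8.47% and 8.69% of all genes. In the same comparisons 4 of 5 p53 targets were called higher in each genotype. Among them Cdkn1a, the p21 inhibitor of the cell cycle, rose by 1.69 ± 0.22 in WT and 1.64 ± 0.22 in KO. The interaction of genotype with irradiation at 2 h was called for 0 of 45 members, and the background was 0%. Unadjusted, 1 of 45 passed, beside 10.3% of all genes. Between WT cells at 2 h and growing ones, the largest rises were those of Rpl35 (0.16 ± 0.17), Rps19 (0.15 ± 0.19) and Rps15 (0.13 ± 0.18), all bright members that did not pass (limma adjusted p = 0.872, 0.903 and 0.913).

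At 24 h most members of mean intensity over 1000 read slightly above their growing level, and none of them was called. The median change of the 45 was 0.12 in WT, beside 0.04 for all genes, and 0.23 in KO, beside 0.11 for all genes. In WT, 2 of 45 were called, both lower, with 9.45% of all genes called in either direction and 3.19% lower. In KO, 1 was called lower and 1 higher (Rpl3l, which passed the filter only through its high group), with a background of 8.83% in either direction and 3.2% lower. In the same comparisons 2 of 12 endoderm markers were called higher in WT and 1 in KO, with medians of 0.30 and 0.33. Of 12 ES cell markers 2 were called lower in WT and 1 in KO, with medians of -0.06 and -0.16. Their part in the changes was not tested. All the called members belonged to the 10 with dim probe sets, which does not show that their mRNAs were scarce. None of the 35 members over 1000 was called in either genotype, nor in the mean of both genotypes, a contrast added later, in which 12 rises and 54 falls were called among 266 other genes over 1000 (background 22.4%).

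Rps6, the substrate of the S6 kinases, had a probe set at 126, 87.9 and 105 in growing WT cells, at 88.5, 96.7 and 117 at 2 h and at 55.6 and 68.5 at 24 h. The 24 h arrays lay below all the other WT arrays, and this probe set fell by 0.64 ± 0.18 on the log2 scale (limma adjusted p = 0.0315). With the mean of all probe sets of Rps6 the change was -0.30 and did not pass (limma adjusted p = 0.141). The other Rps6 probe set, of mean intensity 8.59, did not pass the filter. In KO cells the first probe set was at 112, 84.3 and 115 when growing and at 64.8 and 83.4 at 24 h. Its change of -0.41 ± 0.18 did not pass (limma adjusted p = 0.163). The difference between the genotypes in this change was 0.23 ± 0.25 and did not pass the interaction test (limma adjusted p = 0.996).

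Rpl14, of the large subunit, was at 130, 102 and 93.5 in growing WT cells and at 71.9 and 61.2 at 24 h. In KO cells it was at 102, 82.1 and 81.1 when growing and at 50.7 and 56.9 at 24 h. The groups did not overlap in either genotype, and Rpl14 fell by 0.59 ± 0.17 in WT and by 0.58 ± 0.17 in KO (limma adjusted p = 0.0351 and 0.0416). Both comparisons rest on few arrays. In WT, 0 members were called without growing replicate 1, whose 18S control read 976, and 0 without the arrays of the second day. Over all genes 766 and 416 were called in these refits, beside 969 in the main fit. Without 24 h replicate 1, which leaves a single 24 h array, the WT change of Rpl14 was -0.68. In KO, 0 members were called without any single one of the growing KO arrays, and 0 without the second day. Over all genes 368, 697 and 414 were called without growing KO replicates 1, 2 and 3. Without the second day it was 274, beside 905 in the main fit. Without 24 h replicate 1 or 2 the KO change of Rpl14 was -0.51 or -0.64.

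Rpl3l, a paralog of Rpl3 known from muscle, passed the filter on dim probe sets only through the KO 24 h group, where it is highest, so its call is given as a description. Its intensity was 1.40, 1.98 and 2.87 in growing KO cells and 15.7 and 13.5 at 24 h. The growing values lie below the filter limit of 11.9 and the 24 h values just above it, and the change of 0.76 ± 0.21 (limma adjusted p = 0.0343) was 2.36 with an added constant of 1, where it did not pass, and 0.25 with 64. In WT at 24 h it read 2.00 and 10.1.

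Rps27l, a paralog of Rps27 and a known p53 target in human cells, is the member for which a response to irradiation is described. It was at 1440, 1430 and 1690 in growing WT cells, at 1155, 1622 and 1427 at 2 h and at 1902 and 1877 at 24 h. In KO cells it was at 1348, 1493 and 1651 when growing, at 1494, 1593 and 1533 at 2 h and at 1857 and 1726 at 24 h. All 4 arrays at 24 h lay above the other 12. The change at 24 h was 0.32 ± 0.14 in WT and 0.26 ± 0.14 in KO, and neither passed (limma adjusted p = 0.193 and 0.269). The mean of both, a contrast added after the values were seen, was 0.29 ± 0.10 (limma adjusted p = 0.0502), and it passed in 9 of 29 other settings. Of its other probe sets, which carry the x mark, 1 changed by 0.41 ± 0.17 in WT and 0.32 ± 0.17 in KO at 24 h, and the other by 0.23 ± 0.19 and -0.03 ± 0.19. At 2 h, when Cdkn1a had already risen, Rps27l differed from growing cells by -0.13 ± 0.13 in WT and 0.04 ± 0.13 in KO.

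Members that bind Mdm2 or act on p53 in mammalian cells were measured for 9 of a list of 12, and 0 of the 9 were called in any of the 7 comparisons between groups. The background in these comparisons was 0.0585% to 9.45%, so a count of 0 of 9 does not set these members apart. At 24 h their median change was 0.17 in WT, with 9 of 9 above 0, and 0.23 in KO, with 8 of 9 above 0. Over all 45 members 38 were above 0 in WT and 37 in KO, and over all 10252 genes 5648 and 6466 were. In KO the largest change among those of mean intensity over 1000 was that of Rps7, 0.43 ± 0.15 (limma adjusted p = 0.0769). Rps7 was at 3302, 3068 and 3423 when growing and at 4171 and 4626 at 24 h. Its KO groups did not overlap, while in WT the change was 0.14 ± 0.15. Rps27 itself, a dim probe set, was at 73.3, 98.9 and 59.1 in growing KO cells and 126 and 138 at 24 h, with a change of 0.69 ± 0.31 (limma adjusted p = 0.179).

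Of 9 measured genes mutated in Diamond-Blackfan anaemia, 0 were called at 24 h in either genotype (background 9.45% in WT and 8.83% in KO). With so few genes, a count of 0 does not set them apart. Their medians were 0.14 in WT and 0.25 in KO. The 21 small-subunit genes had a median of 0.14 in WT and 0.25 in KO, and the 24 large-subunit genes 0.08 and 0.20. Rpsa, also known as a laminin receptor, changed by 0.19 ± 0.18 in WT and 0.29 ± 0.18 in KO (limma adjusted p = 0.582 and 0.325). The stalk protein gene Rplp2 changed by 0.14 ± 0.16 and 0.27 ± 0.16 (limma adjusted p = 0.659 and 0.32). Rps4l, a paralog of Rps4x, had the most negative change in WT of a member of mean intensity over 1000, -0.28 ± 0.13 (limma adjusted p = 0.214).

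The interaction test of genotype with the response at 24 h called 0 of 45 members, with a background of 0%. An unadjusted p below 0.05 was reached by 1 of 45, and by 4.87% of all genes. With 2 arrays in each 24 h group, the SE of the interaction had a median of 0.24 in the small and 0.23 in the large subunit, and a call missed here does not show equal responses. The interaction lay above 0 for 36 of the 45, 17 in the small and 19 in the large subunit, and for 5625 of all 10252 genes. Its median was 0.11 in the small and 0.09 in the large subunit, beside 0.03 for all genes.

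Other probe sets of a member did not always follow the chosen one. For Rpl22, whose chosen probe set changed by 0.21 ± 0.16 in WT at 24 h, a dimmer probe set with the s mark rose by 0.68 ± 0.18 (limma adjusted p = 0.0255). For Rps24, a dim probe set without a mark rose by 0.86 ± 0.18 in KO at 24 h (limma adjusted p = 0.00642), while the chosen probe set was not called. These were the only other member probe sets called in the 9 comparisons.

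**Figure D2:**
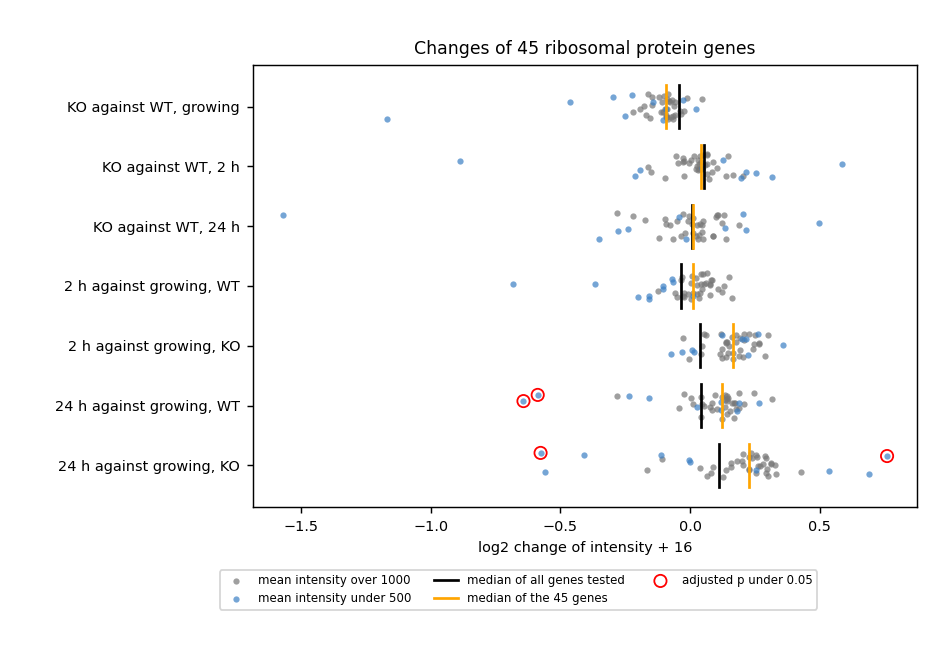
Log2 change of intensity + 16 (horizontal axis) of each of the 45 genes in 7 comparisons between groups, grey for mean intensity over 1000 and blue for under 500, with red rings at an adjusted p below 0.05. The 4 ringed points are all dim members (Rps6 and Rpl14 in WT, Rpl14 and Rpl3l in KO, 24 h), and the medians of the 45 (orange) and of all genes tested (black) lie between -0.09 and 0.23.

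Genes that build the ribosome included called falls at 24 h. Of 36 measured genes for ribosome biogenesis, 8 were called lower in WT and 6 in KO, and 0 were called higher in either. The median changes were -0.40 and -0.35. Over all genes 3.19% were called lower in WT and 3.2% in KO. Eif6, which keeps the large subunit from joining too early, fell from 1107 ± 144 (SD, n = 3) to 645 ± 41.8 (n = 2) in WT and from 1310 ± 108 to 799 ± 195 in KO (limma adjusted p = 0.00411 and 0.00695). Nop16, a nucleolar factor for the large subunit, fell by 0.54 ± 0.15 in WT and by 0.68 ± 0.15 in KO (limma adjusted p = 0.0277 and 0.00966). Bop1, of the PeBoW complex, fell in WT by 0.59 ± 0.15 (limma adjusted p = 0.0203), and Fbl, the methyltransferase fibrillarin, fell in KO by 0.63 ± 0.15 (limma adjusted p = 0.0153). Of 12 genes of RNA polymerase I and its factors, Polr1b and Ubtf were called lower in both genotypes.

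These counts rest on few arrays too. Over all genes 416 in WT and 274 in KO were called in either direction without the arrays of the second day, beside 969 and 905 in the main fit. Without these arrays 1 biogenesis gene was called lower in WT and 1 in KO. The count was 0 in WT without 24 h replicate 1 and 0 in KO without 24 h replicate 1, and it was 15 in KO without 24 h replicate 2. In WT it was 2 without the arrays of high 18S signal, and in KO it was 15 with median centring. All genes called in either direction in these 2 settings numbered 722 and 1024. Genes other than ribosomal proteins whose mRNAs carry the TOP motif had medians of -0.03 in WT and -0.03 in KO over 14 measured. Of these, Nap1l1 was called lower in both genotypes and Eef1d, an elongation factor subunit, in KO. Ribosomal proteins outside the naming rule (Fau, Rps3a1 and the paralogs Rpl22l1 and Rpl7l1) were called in none of the comparisons. The background there was 0% to 9.45%, and a count of 0 among so few genes does not set them apart. Whether the lists differ from each other was not tested.

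**Figure D3:**
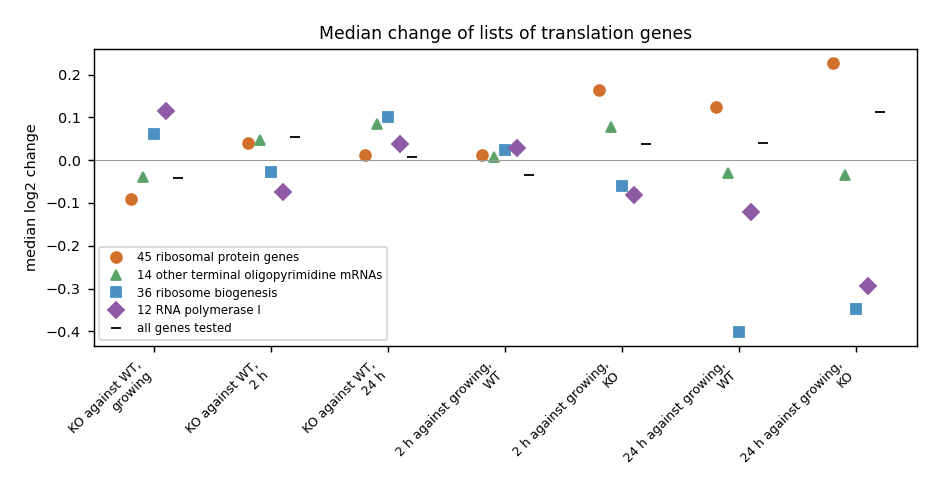
Median log2 change (vertical axis) of the 45 ribosomal protein genes, 14 other TOP mRNAs, 36 ribosome biogenesis genes, 12 RNA polymerase I genes and all genes tested, in 7 comparisons between groups. At 24 h the ribosomal protein genes lie at 0.12 and 0.23 and the biogenesis genes at -0.40 and -0.35 in WT and KO.

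The ribosomal protein genes of mean intensity over 1000 rose and fell together between replicate arrays of one group. Over 35 members and 16 arrays, deviations from the group mean correlated with a median pairwise r of 0.78, a description across arrays that share depth of signal and scaling. The same figure was 0.15 for 266 other genes over 1000, 0.53 for 38 other genes over 2500 and 0.08 for the 10 dim members. In WT at 24 h the median log2 intensity of the 35 was 12.09 on replicate 1 and 11.78 on replicate 2, and in KO 12.06 and 11.79. The growing KO arrays read 11.70, 11.62 and 11.94, and the growing WT arrays 11.75, 11.83 and 11.92. The ranges of these 4 groups overlapped.

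The joint deviation was shared in part by other very bright genes. The deviation of the median of the 35 members correlated with that of the 38 other genes over 2500 at r = 0.87, and with that of the 266 other genes over 1000 at r = 0.47, over the 16 arrays. After the median deviation of the 266 other genes over 1000 was subtracted on each array, the median pairwise r was 0.66 among the 35 members and 0.30 among the 38 other genes over 2500. Arrays of the third hybridisation run were low in the 35 members (11.62 to 11.82), and those of the run on the second day were between 11.92 and 12.01. Inside the run that held both, WT at 24 h stood above growing WT by 0.29 in the median of the 45 relative to all genes, and in another run KO at 24 h stood above growing KO by 0.17, with 2 arrays each and no test. Rps27l followed the others in part: in growing cells and at 24 h its highest array in each group was that of the 35. In WT at 2 h, however, Rps27l was lowest on replicate 1, where the 35 had their highest 2 h median of 12.02. It was highest in that group on replicate 2, where they had their lowest of 11.68. In KO at 2 h Rps27l was also highest on replicate 2, where the 35 had their lowest median, 11.82.

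**Figure D4:**
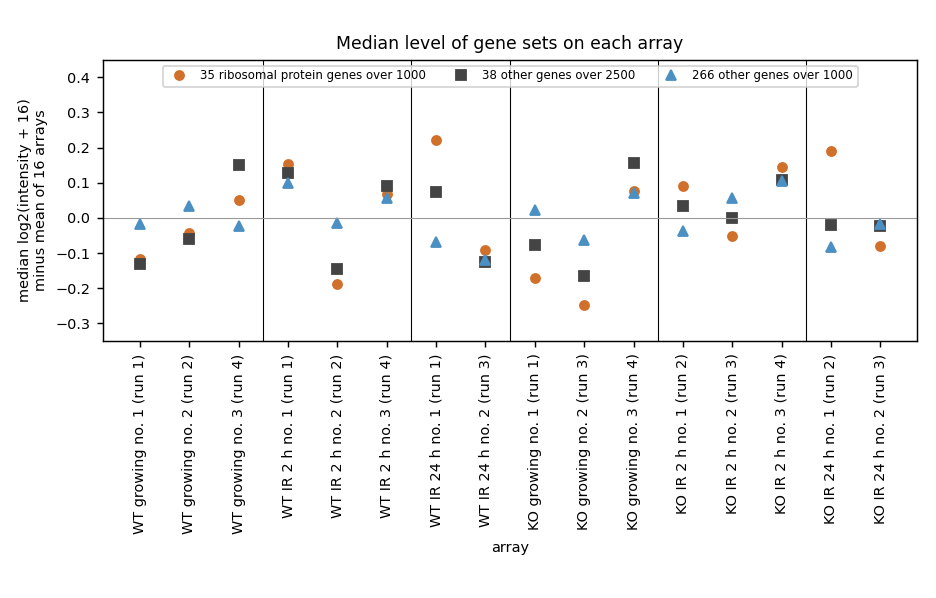
Median log2(intensity + 16) of 3 sets of genes on each array, minus the mean of the 16 arrays (vertical axis), by group and hybridisation run. The 35 ribosomal protein genes over 1000 (orange circles) and 38 other genes over 2500 (dark squares) move together between replicates, and the 266 other genes over 1000 (blue triangles) less so.

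**Figure D5:**
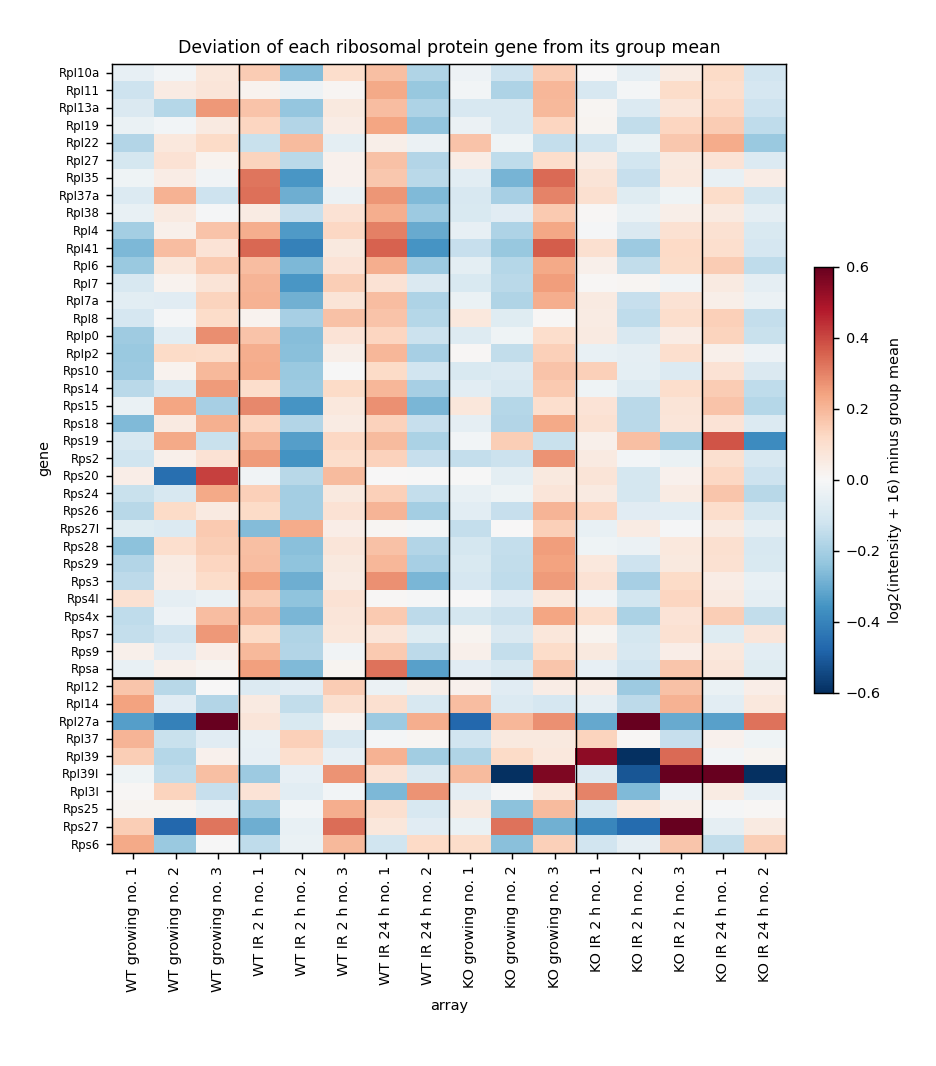
Deviation of each of the 45 genes (rows) from its group mean on each array (columns), as log2(intensity + 16), red above and blue below. Most of the 35 genes above the black line change sign together from array to array, with a median pairwise r of 0.78 and exceptions such as Rps27l and Rpl22 in WT at 2 h, and the 10 dim genes below it do not, with 0.08.

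The within-group SD of a member had a median of 0.19 on the log2 scale, beside 0.21 for all genes tested and 0.16 for other genes over 1000. The most variable member was a dim one, with 0.50. The ES identity of the cells was checked with 12 markers, whose mean log2 intensity lay between 9.02 and 9.52 on all arrays. Such a mean does not show that WT and KO cells were alike, and 1 of the 12 was called lower in growing KO cells. Markers of feeder fibroblasts (19 measured of 20) had means between 5.54 and 6.94, and between 6.28 and 6.94 on the second day. On the first day the 24 h arrays read 6.53 and 5.97 in WT and 6.47 and 6.35 in KO. The growing arrays of the first day were lower, at 5.54 and 5.84 in WT and 5.78 and 5.90 in KO. By group they ranged from 5.54 to 6.94 in growing WT, 5.81 to 6.86 at 2 h and 5.97 to 6.53 at 24 h. In KO they ranged from 5.78 to 6.52, from 5.72 to 6.33 and from 6.35 to 6.47. None of the 19 had a mean under the filter limit, and their part in the changes at 24 h was not tested. Primitive endoderm markers had means between 5.72 and 6.76 on single arrays. In such bulk samples fewer cells of a type and less RNA per cell cannot be told apart.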

How the data were processed

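Each of the 16 arrays gave 1 linear intensity per probe set, deposited by the authors as a scaled intensity table. Which software summarised the probes is stated in neither the labels nor the files. Per the labels' protocols, 5 µg of Trizol RNA and 1 round of cRNA amplification were used. With 2 or 3 arrays a group, their number limits the precision. Probe sets were named through the platform annotation of GEO (20380 with 1 symbol, 691 with several, 1555 with none), and only those with 1 symbol were used for genes. The 64 control probe sets were left out of the tests. A constant of 16 was added and log2 taken. Probe sets were kept where at least 1 group mean exceeded the 30th percentile (4.80 on the log2 scale, an intensity of 11.9).

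A model of 6 group means was fitted over all arrays with limma 3.58.1 in R 4.3.3 (lmFit, eBayes with trend, 10 residual and 8.55 prior degrees of freedom), and checked on simulated data. All groups shared 1 estimate of the spread. There were 9 main comparisons and 2 contrasts added after the values were seen. Hybridisation runs were taken from the hybridisation time recorded in each array's experiment file: arrays whose times lay within 5 minutes of each other formed 4 runs on 2 days, and run 4, the second day, held the replicate 3 arrays. The 29 alternatives cover the constant, filter, scaling, blocks, probe set rule, moderation and arrays left out.

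The members, gene lists and tests were chosen with earlier results of these data known. Genes named are every called member, the 3 largest rises and falls in each of the 7 comparisons between groups (given where they carry a result), a fixed set of members of known role, and called genes of the outside lists. Of the fixed set, Rpl5, Rpl23, Rpl26, Rplp1, Rpl10l, Rpl10 and Rps27a had no probe set under the rule and were not analysed here. Values of the inactivated gene are not given, and genotypes follow the labels. Promoter sequences are RefSeq's, build GRCm38.p6. They belong to the annotated start, which may differ from the start used in these cells.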

Additional observations from a re-analysis of the deposited data

How the results depend on the processing

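Of the 29 alternatives, none reversed a called change. Both counts at 2 h against growing and both interaction counts were 0 in all of them. Between KO and WT in growing cells, 1 member was called with the replicate block and 1 with run as a block. At 24 h it was 1 with each, and each time this was Rpl39l. Over all genes 81 and 97 were called with these blocks when growing, and 22 and 15 at 24 h. At 2 h, 1 (Rpl39) was called without the arrays of high 18S signal, where 25 of all genes were. Leaving out a single array of a group of 3 gave 0 to 1. For 24 h against growing in WT the count of 2 became 0 without the second day, 0 without the arrays of high 18S signal and 1 with the mean of all probe sets of a gene, and leaving out single replicates gave 0 to 2. In KO the count of 2 became 1 with an added constant of 1 or 64, with no filter, or with a filter at the 50th percentile. It was also 1 with quantile normalization, median centring, run as a block (Rps7) and eBayes without trend. Over all genes 723 to 1024 were called in these settings, beside 905 in the main fit. The count of members became 0 without the second day, where 274 of all genes were called. Leaving out a single array of a group of 3 gave a count of 0 to 2. It was 3 with only probe sets without an x or s mark (Rps24 added). With the replicate block it stayed at 2, but Rps7 was called (0.49, limma adjusted p = 0.0219) in place of Rpl3l (0.74, limma adjusted p = 0.0534). Replicate numbers were not taken to pair the samples in the main fit. Correlations of deviations between same-numbered arrays had medians of 0.12, 0.12 and 0.13 for numbers 1, 2 and 3. They exceeded 0.1 in 8 of 15, 9 of 15 and 4 of 6 pairs. Pairs of different numbers were not computed, so these values cannot decide whether the samples were paired. Number 3 coincides with the second day. The median of the 45 relative to all genes ranged, with single replicates left out, from -0.16 to 0.16 for KO against WT at 24 h, from -0.092 to 0.18 for 24 h against growing in WT and from -0.091 to 0.23 for the interaction at 24 h. In those 3 results the sign depends on single 24 h arrays. Median centring moved the median change of all genes at 24 h from 0.11 to -0.10 in KO. With 2 arrays at 24 h and probe sets near the filter limit, small changes cannot be resolved, and causes of these shifts were not tested.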
